A study of Homo sapiens with 16 samples.

Results

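The 10 core cardiac transcription factor genes GATA4, GATA6, NKX2-5, TBX5, TBX20, MEF2A, MEF2C, HAND1, HAND2 and IRX4 were read from the expression table by symbol, 10 of its 43388 genes, in all 16 libraries and 4 groups. The rule names them by symbol for their role in heart development and uses no measured value. The set was nevertheless chosen with earlier results of these data known. The libraries came from cardiomyocytes differentiated from the induced pluripotent stem cell line WTC11, of human origin and labelled as genotype WT, by the GiWi protocol, in which Wnt signalling is first activated and then inhibited with small molecules. The culture passed through a cryopreserved progenitor bank and was checked by flow cytometry for cardiac troponin T at Day 16, so other cell types could remain in each well. The 4 groups were Day 16 cells in RPMI/B27, and Day 30 cells that had been moved at Day 16 into standard RPMI/B27, into RPMI/B27 with its glucose lowered to 5 mM (RPMI_glcM/B27), or into HPLM/B27, a medium modelled on the solutes of human plasma. Every group kept the B27 supplement and the same line, and each held 4 separately cultured wells. The labels list 4 libraries per group where the design text of the series gives 3, and all 4 were used. The study describes its RNA-seq as made on a single differentiation, so p-values measure the spread between wells of it and not between differentiations.

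These factors form the network that specifies and maintains heart muscle. GATA4 and GATA6 are zinc finger proteins, NKX2-5 and IRX4 are homeodomain proteins, TBX5 and TBX20 carry a T-box, MEF2A and MEF2C carry a MADS box, and HAND1 and HAND2 are basic helix-loop-helix proteins that bind E-boxes with a partner. They bind enhancers of sarcomere, calcium handling and natriuretic peptide genes, often side by side, and they regulate each other. In the embryonic heart HAND1 marks the left ventricle, HAND2 marks the right ventricle and outflow tract, TBX5 marks the left ventricle and atria, and IRX4 is restricted to ventricular muscle.

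Reads recovered from the deposited TPM (transcripts per 1000000, a value per transcript length) numbered 7744768 to 16183655 per library, with a median of 10572856. RNR2, the mitochondrial large ribosomal RNA, took 41.0% to 48.3% of a library's TPM, and the nuclear non-coding RN7SK took 8.76% to 13.8%. RNR1, the mitochondrial small ribosomal RNA, stood highest in Day 30 RPMI/B27 replicates 3 and 4, at 14387 and 29276 TPM. The deposited TPM of a typical gene was lower at Day 30 than at Day 16, with median log2 differences over all genes tested of −0.28 (RPMI/B27), −0.22 (RPMI_glcM/B27) and −0.29 (HPLM/B27). Each library was therefore divided by a median-of-ratios factor (0.720 to 1.33), which brought these medians to 0.01 in each comparison, and the values below are this scaled TPM unless the deposited TPM is named. After scaling, 1413 genes were called higher and 1412 lower in RPMI/B27 against Day 16, where the deposited TPM gave 336 and 2867. The corresponding counts were 2254 and 2197 against 538 and 2862 in RPMI_glcM/B27, and 2155 and 1919 against 483 and 3605 in HPLM/B27. Differences are thus relative to the typical gene, and a bulk library cannot tell fewer cells of a type from less RNA per cell.

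All 10 genes were expressed in every library, with 181 reads (IRX4) to 18284 reads (TBX20) behind a single value, and all 10 passed the filter of a mean of 1 TPM. TPM is a value per length, so the levels are ordered between genes here. The gene lengths used are not given, so this order holds only as far as they are right. TBX20 was the highest, at 291 to 429 TPM, and its lowest library lay above the highest library of HAND2, at 106 to 254 TPM. MEF2A followed at 91.9 to 139 TPM, below HAND2 in every group. At Day 16 the ranges of GATA4 (65.1 to 74.4 TPM), GATA6 (64.7 to 73.3 TPM), NKX2-5 (57.6 to 67.6 TPM), HAND1 (55.4 to 60.6 TPM) and MEF2C (54.1 to 59.6 TPM) overlapped from each to the next. The order of neighbours in this series was therefore not resolved, although every GATA4 and GATA6 value lay above every HAND1 and MEF2C value. TBX5 (42.4 to 50.7 TPM) and then IRX4 (22.7 to 30.5 TPM) lay below the ranges of all these genes. At Day 30 every MEF2C value lay below every TBX5 value.

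**Figure D1:**
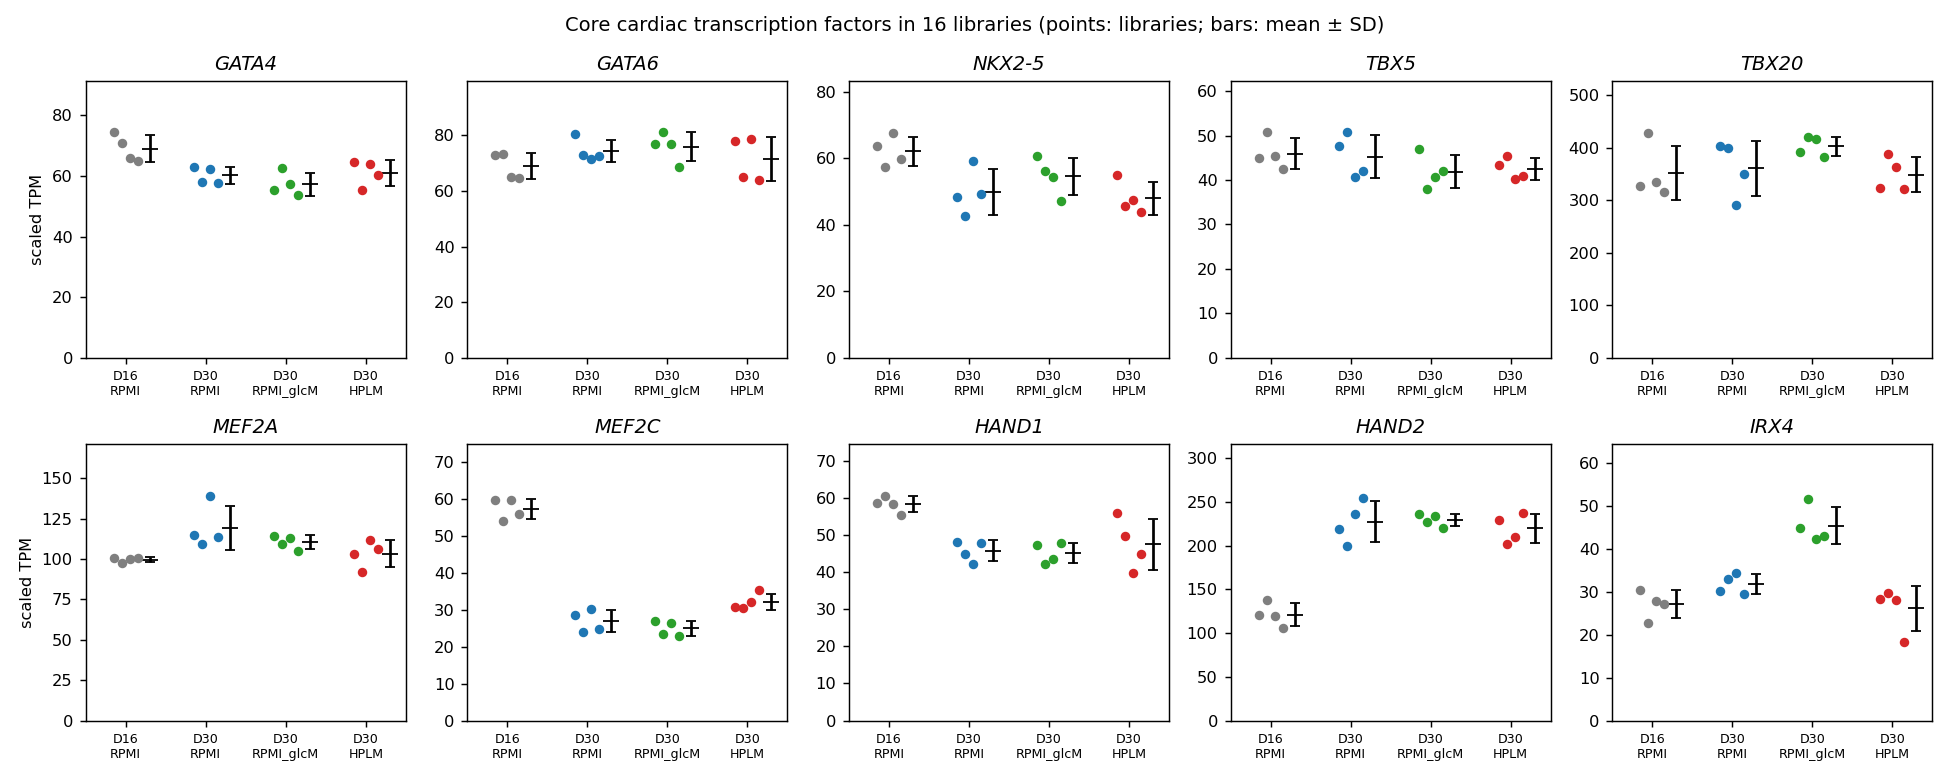
Scaled TPM (vertical axis, linear from 0) of the 10 genes in each library, by group on the horizontal axis (D16 is Day 16, D30 is Day 30). Points are libraries and the bar beside them is the mean ± SD of 4. MEF2C drops from 54.1 to 59.6 TPM at Day 16 to at most 35.3 TPM at Day 30, HAND2 is at 199 TPM or more in all Day 30 libraries, and IRX4 exceeds 42 TPM in the RPMI_glcM/B27 libraries alone.

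A test of any difference among the 4 groups (moderated F, limma, Benjamini-Hochberg adjusted over 16122 genes, threshold 0.05) called 6 of the 10 genes: MEF2C, HAND2, IRX4, HAND1, GATA4 and NKX2-5. The same test called 33.7% of all genes. MEF2A had an adjusted p of 0.058, and TBX20, GATA6 and TBX5 had 0.37, 0.47 and 0.48. In the pairwise comparisons of the same limma fit, 5 of the 10 were called in Day 30 RPMI/B27 against Day 16, with 2 higher and 3 lower, against 17.5% of all genes (8.76% higher and 8.76% lower). In RPMI_glcM/B27 against Day 16, 5 were called, 2 higher and 3 lower, against 27.6% of all genes (14.0% higher and 13.6% lower). In HPLM/B27 against Day 16, 4 were called, 1 higher and 3 lower, against 25.3% (13.4% higher and 11.9% lower). These 3 comparisons share the Day 16 libraries. Their median log2 fold change over the 10 genes was 0.01, 0.00 and −0.09, beside 0.01 for all genes tested in each.

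Among the Day 30 media, 1 of the 10 was called in RPMI_glcM/B27 against RPMI/B27, where 12.1% of all genes were called (6.46% higher and 5.64% lower). None was called in HPLM/B27 against RPMI/B27 by limma at the adjusted threshold, where 13.0% of all genes were called (7.43% higher and 5.54% lower). In that comparison 3 of the 10 had an unadjusted p under 0.05 (MEF2A, MEF2C and IRX4), and limma-voom on the recovered reads called 2, MEF2A and MEF2C. Between HPLM/B27 and RPMI_glcM/B27, which share their glucose level, 2 of the 10 were called, with MEF2C higher and IRX4 lower, where 1.59% of all genes passed (0.992% higher and 0.602% lower). Over the 10 genes the median log2 fold change was 0.00, −0.05 and −0.08 in these comparisons, beside 0.00, −0.01 and 0.00 for all genes.

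**Figure D2:**
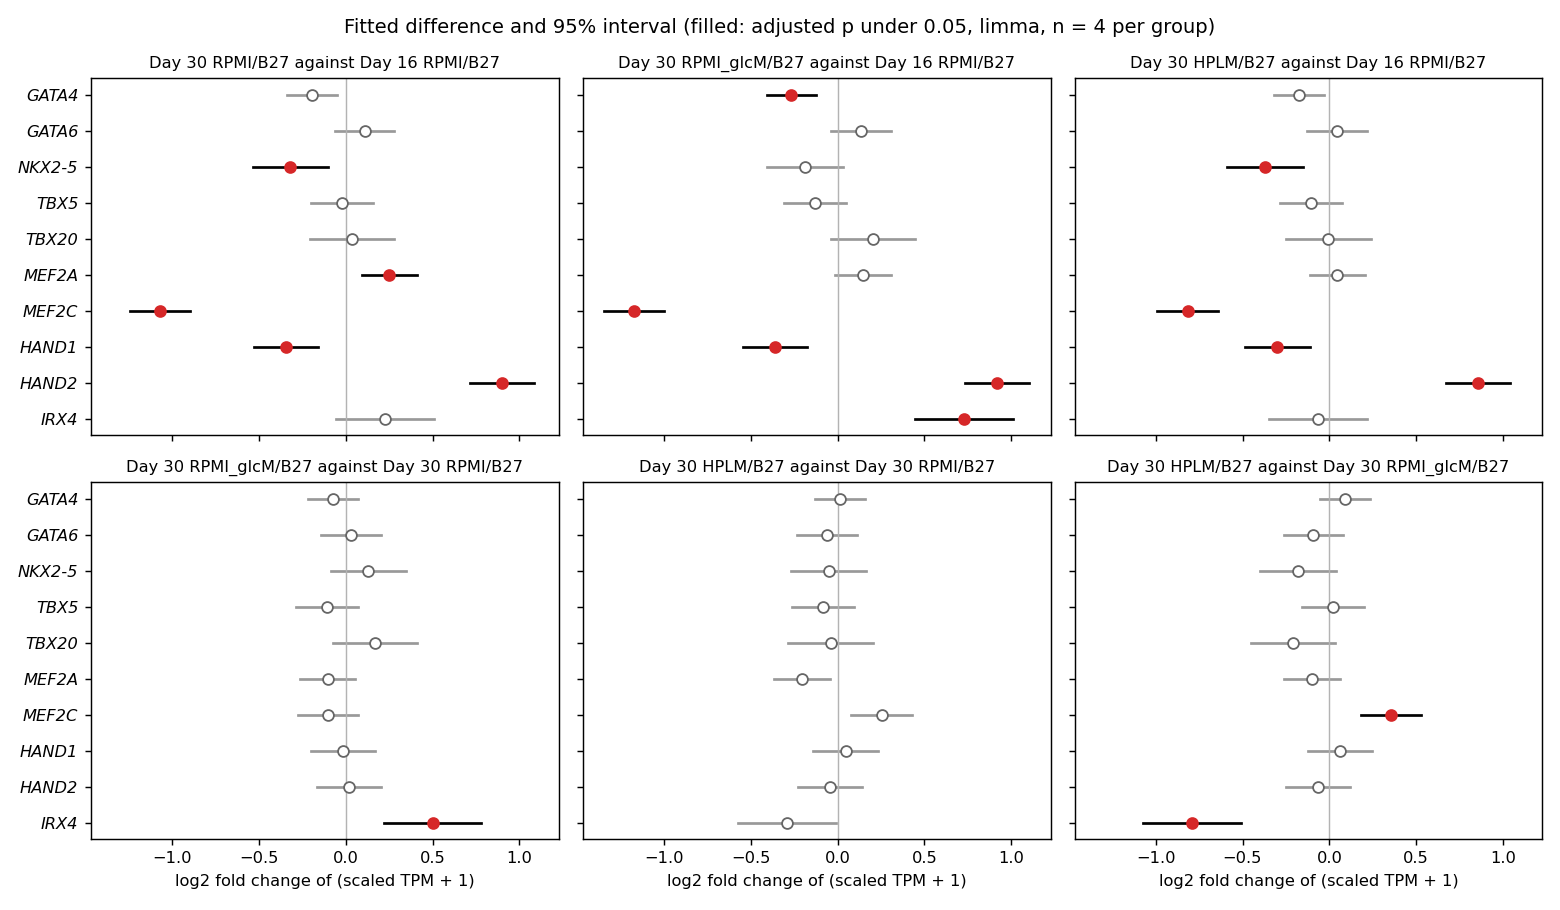
Fitted log2 fold change of (scaled TPM + 1) on the horizontal axis for the 10 genes in the 6 comparisons, first-named group minus second, with its 95% interval; filled points passed an adjusted p of 0.05. MEF2C and HAND2 stand apart from 0 in all 3 comparisons with Day 16, in opposite directions, and IRX4 is called in each comparison that has RPMI_glcM/B27 on one side.

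MEF2C (chr5:88717117-88904105), whose product drives muscle gene expression from the looping heart tube onwards, fell most of the 10 in each Day 30 medium. Its level was 59.5, 54.1, 59.6 and 55.8 TPM in the Day 16 libraries (57.2 ± 2.75, SD, n = 4). It was 28.6, 23.97, 30.1 and 24.6 TPM in Day 30 RPMI/B27 (26.8 ± 3.00, SD, n = 4). In RPMI_glcM/B27 it was 26.9, 23.4, 26.4 and 22.9 TPM (24.9 ± 2.04, SD, n = 4). No Day 30 library came near a Day 16 library. In HPLM/B27 it was 30.7, 30.3, 32.0 and 35.3 TPM (32.1 ± 2.23, SD, n = 4), above every library of both RPMI media, narrowly so for RPMI/B27. In deposited TPM the groups overlapped. HPLM/B27 replicate 1 (27.1 TPM) lay below RPMI/B27 replicates 1 and 2 (32.8 and 28.2 TPM) and RPMI_glcM/B27 replicate 1 (28.2 TPM). Against Day 16, MEF2C fell by 1.07 ± 0.08 (SE) on the log2 scale in RPMI/B27, with an adjusted p of 6.9e-07 (limma), to 46.9% of the Day 16 mean. It fell by 1.17 ± 0.08 in RPMI_glcM/B27 (adjusted p 1.7e-07, limma) and by 0.82 ± 0.08 in HPLM/B27 (adjusted p 4.2e-06, limma). In HPLM/B27 against RPMI_glcM/B27, MEF2C was higher by 0.35 ± 0.08, with an adjusted p of 0.043 (limma). That call was lost when any 1 of the 8 libraries was left out (adjusted p 0.051 to 0.14, log2 fold change 0.31 to 0.39), and with the TPM as deposited the difference was 0.28 with an adjusted p of 0.85. In HPLM/B27 against RPMI/B27 the difference was 0.25 ± 0.08 with an adjusted p of 0.053 (limma), which became 0.018 without Day 30 RPMI/B27 replicate 3 and 0.033 with the replicate number as a block.

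The promoter is shown for MEF2C because it fell most. RefSeq lists 7 start sites for MEF2C and gene-level TPM does not separate them; the outermost is printed, the 250 bases before the first transcribed base on the minus strand of chr5:88904106-88904355 (GRCh38.p14). Capitals mark matches, on either strand, to the CCAAT box (CCAAT) and to the NKX2 core (AAGTG). The CCAAT letters occur in 32.0% of the 35116 promoter windows of the same length in the table and the NKX2 letters in 37.6%.
MEF2C: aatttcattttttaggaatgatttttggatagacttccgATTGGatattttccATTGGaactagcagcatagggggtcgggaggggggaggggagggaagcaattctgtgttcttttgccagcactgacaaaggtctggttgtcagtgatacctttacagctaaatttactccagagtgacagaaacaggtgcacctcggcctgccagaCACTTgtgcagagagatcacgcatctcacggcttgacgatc
The NKX2 match begins 41 bases before the first transcribed base, and the CCAAT matches begin 211 and 197 bases before it. Short letter matches of this kind are a description of the window and not a binding site.

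MEF2A (chr15:99565417-99716488), the paralog that predominates after birth in heart muscle, did not share this pattern. It measured 101, 97.6, 100.4 and 100.4 TPM at Day 16 (99.7 ± 1.42, SD, n = 4) and 115, 109, 139 and 114 TPM in Day 30 RPMI/B27 (119 ± 13.5, SD, n = 4). It ranged from 105 to 115 TPM in RPMI_glcM/B27 and from 91.9 to 112 TPM in HPLM/B27. The RPMI/B27 and RPMI_glcM/B27 libraries all lay above those of Day 16, while the HPLM/B27 libraries spread to either side. MEF2A rose by 0.25 ± 0.07 in RPMI/B27 against Day 16 (adjusted p 0.031, limma), and this direction depended on the scaling: with TPM as deposited the log2 fold change was −0.087 and was not called. The call was also lost without any 1 of the 4 Day 16 libraries or without Day 30 RPMI/B27 replicate 3 (adjusted p 0.057 to 0.064, log2 fold change 0.18 to 0.25). HPLM/B27 against Day 16 gave 0.05 (95% interval −0.11 to 0.21), and HPLM/B27 against RPMI/B27 gave −0.20 (adjusted p 0.088, limma).

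HAND2 (chr4:173526091-173530229), the factor of the right ventricle and outflow tract, rose most of the 10. Its level was 121, 138, 119.9 and 106 TPM at Day 16 (121 ± 12.9, SD, n = 4). It was 219, 199, 236 and 254 TPM in RPMI/B27 (227 ± 23.5, SD, n = 4) and 237, 228, 234 and 221 TPM in RPMI_glcM/B27 (229.7 ± 7.13, SD, n = 4). In HPLM/B27 it was 229, 202, 209.8 and 238 TPM (219.8 ± 16.6, SD, n = 4). The lowest Day 30 library was well above the highest Day 16 library, and the 3 Day 30 groups overlapped throughout. HAND2 rose by 0.90 ± 0.09 in RPMI/B27 (adjusted p 5.5e-06), 0.92 ± 0.09 in RPMI_glcM/B27 (adjusted p 2.4e-06) and 0.86 ± 0.09 in HPLM/B27 (adjusted p 4.8e-06) against Day 16 by limma, a fold of 1.87, 1.89 and 1.81. As deposited TPM the rises were 0.56, 0.65 and 0.51 and each was still called. Between any pair of Day 30 media the log2 difference in HAND2 lay within 0.07 of 0, with 95% intervals inside −0.25 to 0.20.

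HAND1 (chr5:154474972-154478227), its paralog, moved the other way. HAND1 measured 58.6, 60.6, 58.3 and 55.4 TPM at Day 16 (58.2 ± 2.11, SD, n = 4) and 48.2, 44.7, 42.1 and 47.7 TPM in RPMI/B27 (45.7 ± 2.84, SD, n = 4). It measured 47.3, 42.2, 43.6 and 47.7 TPM in RPMI_glcM/B27 (45.2 ± 2.71, SD, n = 4) and 55.8, 49.7, 39.7 and 44.7 TPM in HPLM/B27 (47.5 ± 6.88, SD, n = 4). All libraries of both RPMI media at Day 30 lay below Day 16, and 1 HPLM/B27 library reached the Day 16 range. HAND1 fell by 0.34 ± 0.09 in RPMI/B27 (adjusted p 0.012), by 0.36 ± 0.09 in RPMI_glcM/B27 (adjusted p 0.0060) and by 0.30 ± 0.09 in HPLM/B27 (adjusted p 0.019), all by limma. The HPLM/B27 call was lost without HPLM/B27 replicate 3 (log2 fold change −0.22, adjusted p 0.062) or replicate 4 (−0.27, adjusted p 0.055).

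The HAND2 promoter is shown because a second gene that rose beside HAND2, the antisense RNA gene HAND2-AS1, has a start inside it. The 250 bases before the first transcribed base of HAND2 lie at chr4:173530230-173530479 on the minus strand (GRCh38.p14, RefSeq), and the second of the 2 HAND2-AS1 starts in the same table is 229 bases away on the plus strand, at position 173530458 (the first, at 173528600, lies within HAND2). Capitals mark the NKX2 core and the CCAAT box as above. They also mark, on either strand, the letters AGATAA of the GATA motif, which 9.17% of all windows hold.
HAND2: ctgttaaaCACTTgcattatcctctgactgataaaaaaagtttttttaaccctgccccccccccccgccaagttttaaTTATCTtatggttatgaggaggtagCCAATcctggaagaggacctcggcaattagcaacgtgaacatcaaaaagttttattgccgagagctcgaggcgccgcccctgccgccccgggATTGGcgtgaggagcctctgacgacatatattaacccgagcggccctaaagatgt
Counted back from the first transcribed base, the matches begin 242 bases away for NKX2, 172 bases away for GATA, and 147 and 55 bases away for the CCAAT boxes. HAND2 was the only one of the 8 genes with a window in the table (19 windows) to hold the GATA letters. GATA4 and NKX2-5 had no window. The MEF2 letters (CTANNNNTAG, 2.36% of all windows) were held by 1 MEF2A window, the T-box letters (AGGTGT, 9.57%) by 3 MEF2C windows, the HAND E-box letters (CATCTG, 12.2%) by 1 IRX4 window and the IRX letters (ACATGT, 3.60%) by 1 MEF2C window. No window of the 8 genes held the TATA box letters (TATAAA, 10.7%).

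HAND2-AS1 (chr4:173528600-173591255) measured 10.1, 15.9, 11.6 and 10.5 TPM at Day 16 (12.0 ± 2.66, SD, n = 4). It measured 31.1, 30.4, 17.7 and 27.6 TPM in RPMI/B27, 27.2 to 31.7 TPM in RPMI_glcM/B27 and 29.5 to 31.8 TPM in HPLM/B27. All 12 Day 30 libraries lay above all Day 16 libraries, with RPMI/B27 replicate 3 nearest to them. This separation depended on the scaling: in deposited TPM, RPMI/B27 replicates 3 and 4 (13.8 and 19.9 TPM) lay below Day 16 replicate 2 (21.1 TPM). HAND2-AS1 rose by 1.08 ± 0.16 in RPMI/B27 (adjusted p 0.00022), 1.22 ± 0.16 in RPMI_glcM/B27 (adjusted p 4.1e-05) and 1.31 ± 0.16 in HPLM/B27 (adjusted p 2.2e-05) against Day 16 by limma, and was still called with TPM as deposited at 0.76, 0.97 and 0.98. The gene overlaps HAND2 on the opposite strand, the library kit keeps strand, and the strand setting of the read counting is not given in the sources used here, so reads of either gene could have been assigned to the other. GATA6-AS1 lies beside GATA6 without overlapping it. It measured 10.4 to 14.9 TPM at Day 16, 16.2 to 24.2 TPM in RPMI/B27, 16.6 to 22.1 TPM in RPMI_glcM/B27 and 12.8 to 18.6 TPM in HPLM/B27. It rose by 0.69 ± 0.15 in RPMI/B27 (adjusted p 0.0059) and 0.59 ± 0.15 in RPMI_glcM/B27 (adjusted p 0.010), and the HPLM/B27 difference was 0.39 with an adjusted p of 0.078 (limma). The deposited TPM gave 0.37, 0.33 and 0.06, none of them called. TBX5-AS1 ranged from 1.29 to 3.58 TPM with no call, and MEF2C-AS1 and MEF2C-AS2 stayed under 1.71 TPM and were below the filter.

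**Figure D3:**
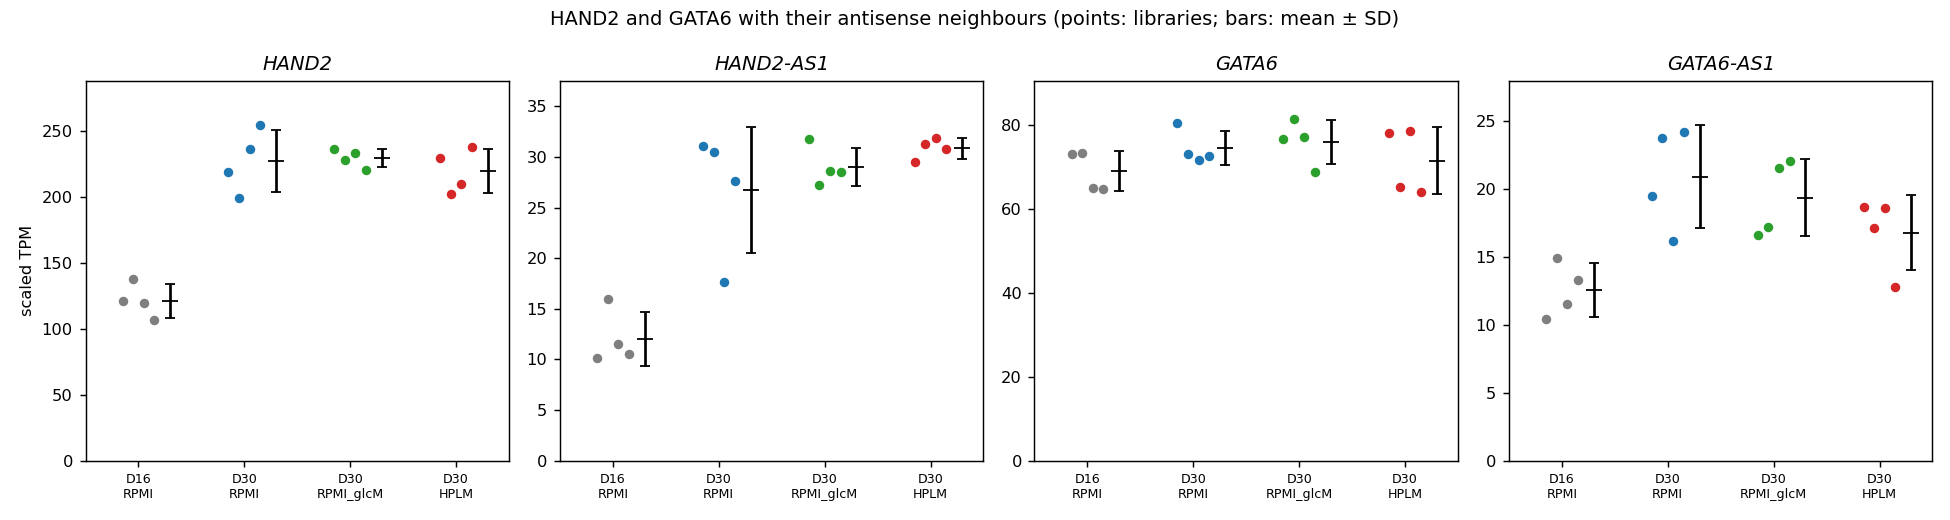
Scaled TPM (vertical axis, linear from 0, a separate scale in each panel) of HAND2, HAND2-AS1, GATA6 and GATA6-AS1 in each library by group. Points are libraries and the bar is the mean ± SD of 4. HAND2 and HAND2-AS1 are both higher in every Day 30 library than in any at Day 16, whereas GATA6 overlaps between the groups.

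GATA4 (chr8:11676935-11760002), which with NKX2-5 and TBX5 activates the earliest heart muscle genes, measured 74.4, 70.7, 66.0 and 65.1 TPM at Day 16 (69.1 ± 4.37, SD, n = 4). It measured 62.9, 58.1, 62.5 and 57.6 TPM in RPMI/B27 (60.3 ± 2.79, SD, n = 4) and 55.4, 62.6, 57.5 and 53.8 TPM in RPMI_glcM/B27 (57.3 ± 3.84, SD, n = 4). In HPLM/B27 it measured 64.5, 55.3, 64.1 and 60.3 TPM (61.0 ± 4.30, SD, n = 4). Every Day 30 library lay below every Day 16 library. GATA4 fell by 0.27 ± 0.07 in RPMI_glcM/B27 (adjusted p 0.0086, limma). The differences of −0.19 in RPMI/B27 (adjusted p 0.063) and −0.18 in HPLM/B27 (adjusted p 0.070) did not pass by limma, and both passed with TPM as deposited (−0.53, adjusted p 0.032, and −0.52, adjusted p 0.027).

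GATA6 (chr18:22169589-22202528), the paralog that shares most GATA4 sites, measured 73.0, 73.3, 65.0 and 64.7 TPM at Day 16 (69.0 ± 4.78, SD, n = 4) and 80.4, 73.1, 71.6 and 72.5 TPM in RPMI/B27 (74.4 ± 4.07, SD, n = 4). It measured 68.7 to 81.3 TPM in RPMI_glcM/B27 and 64.0 to 78.6 TPM in HPLM/B27. The ranges of all groups overlapped. Against Day 16 the log2 differences were 0.11, 0.14 and 0.05, with 95% intervals from −0.13 to 0.31 across the 3 media, and their sign changed to −0.23, −0.13 and −0.30 with TPM as deposited, where none was called either.

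NKX2-5 (chr5:173232109-173235206), the homeodomain factor that marks cardiac progenitors and muscle, measured 63.6, 57.6, 67.6 and 59.9 TPM at Day 16 (62.2 ± 4.39, SD, n = 4). It measured 48.4, 42.8, 59.4 and 49.2 TPM in RPMI/B27 (49.9 ± 6.89, SD, n = 4), 60.7, 56.2, 54.4 and 47.2 TPM in RPMI_glcM/B27 (54.6 ± 5.62, SD, n = 4) and 55.1, 45.5, 47.5 and 43.8 TPM in HPLM/B27 (48.0 ± 4.97, SD, n = 4). The HPLM/B27 libraries lay below those of Day 16, and 1 library of RPMI/B27 and 1 of RPMI_glcM/B27 reached into the Day 16 range. NKX2-5 fell by 0.37 ± 0.10 in HPLM/B27 (adjusted p 0.015, limma) and stayed called with any 1 library left out. It fell by 0.32 ± 0.10 in RPMI/B27 (adjusted p 0.0435, limma), and this call was lost without Day 16 replicate 1, 3 or 4 or without RPMI/B27 replicate 1, 2 or 4 (log2 fold change −0.33 to −0.25, adjusted p 0.065 to 0.12). In RPMI_glcM/B27 the difference was −0.19 with an adjusted p of 0.20 (limma), and it passed with TPM as deposited (−0.46, adjusted p 0.041) and with TPM rescaled without mitochondrially encoded, ribosomal RNA and RN7SK genes (−0.31, adjusted p 0.031). Among the Day 30 media it lay between −0.18 and 0.13, and none was called.

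TBX5 (chr12:114353911-114408442) and TBX20 (chr7:35202430-35254100), T-box factors that act with and against each other in chamber formation, were called in 0 of 6 comparisons by limma, with no unadjusted p under 0.05, and by limma-voom in 0 of 6. TBX5 measured 44.9, 50.7, 45.4 and 42.4 TPM at Day 16 (45.9 ± 3.49, SD, n = 4) and ranged from 40.6 to 50.8 TPM in RPMI/B27, from 37.9 to 46.9 TPM in RPMI_glcM/B27 and from 40.2 to 45.5 TPM in HPLM/B27. Its log2 differences from Day 16 were −0.02, −0.13 and −0.11, with 95% intervals from −0.31 to 0.16 across the media. TBX20 measured 328, 429, 335 and 315 TPM at Day 16 (352 ± 52.0, SD, n = 4) and ranged from 291 to 403 TPM in RPMI/B27, from 382 to 421 TPM in RPMI_glcM/B27 and from 321 to 389 TPM in HPLM/B27. Day 16 replicate 2 alone stood at the level of the RPMI_glcM/B27 libraries. The RPMI_glcM/B27 difference of 0.20 had an adjusted p of 0.21 (limma), and without Day 16 replicate 2 it was 0.30 with an adjusted p of 0.047. With RNR1 as a covariate it was likewise 0.30, with an adjusted p of 0.028, whereas with TPM as deposited it was −0.070 (adjusted p 0.85).

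IRX4 (chr5:1877413-1887179), the ventricular homeodomain factor, was higher in a single medium. It measured 30.5, 22.7, 27.9 and 27.3 TPM at Day 16 (27.1 ± 3.26, SD, n = 4) and 30.3, 33.0, 34.4 and 29.4 TPM in RPMI/B27 (31.8 ± 2.29, SD, n = 4). In RPMI_glcM/B27 it measured 44.8, 51.7, 42.3 and 42.9 TPM (45.4 ± 4.30, SD, n = 4), and in HPLM/B27 28.3, 29.8, 28.2 and 18.3 TPM (26.2 ± 5.27, SD, n = 4). The RPMI_glcM/B27 libraries stood clear of all 12 others, which overlapped. IRX4 rose by 0.73 ± 0.13 in RPMI_glcM/B27 against Day 16 (adjusted p 0.00080, limma), and was higher by 0.50 ± 0.13 than in RPMI/B27 (adjusted p 0.023, limma). It was lower by 0.79 ± 0.13 in HPLM/B27 than in RPMI_glcM/B27 (log2 fold change −0.79, adjusted p 0.0066, limma), a ratio of means of 0.576. The latter call held without any 1 library, including HPLM/B27 replicate 4, while the call against RPMI/B27 was lost without RPMI/B27 replicate 1 or 4 or RPMI_glcM/B27 replicate 2 (log2 fold change 0.44 to 0.48, adjusted p 0.055 to 0.073). In deposited TPM the 3 differences were 0.46, 0.56 and −0.87, with adjusted p of 0.10, 0.16 and 0.11. HPLM/B27 against Day 16 gave −0.06 (95% interval −0.35 to 0.22).

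The promoter of IRX4 is shown for its base composition. RefSeq lists 3 IRX4 starts, and the 250 bases before the outermost lie at chr5:1887180-1887429 on the minus strand (GRCh38.p14).
IRX4: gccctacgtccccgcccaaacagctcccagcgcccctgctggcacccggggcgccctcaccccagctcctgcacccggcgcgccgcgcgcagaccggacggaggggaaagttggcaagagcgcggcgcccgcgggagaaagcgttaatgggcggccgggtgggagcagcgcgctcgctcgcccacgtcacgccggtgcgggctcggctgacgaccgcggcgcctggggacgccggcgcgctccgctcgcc
It is 77.6% G and C, beside 47.2% for the MEF2C window, 49.6% for the HAND2 window and a median of 58.0% over all windows, and none of the 8 short motifs searched has a match in it.

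Ratios between family members within a library do not depend on how that library is scaled. GATA4/GATA6 was 1.02, 0.966, 1.02 and 1.00 at Day 16 (1.00 ± 0.02, SD, n = 4), and at Day 30 it was 0.811 ± 0.04 (RPMI/B27), 0.755 ± 0.03 (RPMI_glcM/B27) and 0.858 ± 0.06 (HPLM/B27). HAND1/HAND2 was 0.484, 0.440, 0.486 and 0.521 at Day 16 (0.483 ± 0.03, SD, n = 4) and 0.202 ± 0.02, 0.197 ± 0.01 and 0.217 ± 0.03 in the same Day 30 groups. The Day 30 libraries of each medium lay below all Day 16 libraries for both ratios. MEF2A/MEF2C was 1.69, 1.81, 1.69 and 1.80 at Day 16 (1.74 ± 0.07, SD, n = 4). It was 4.03, 4.56, 4.62 and 4.62 in RPMI/B27 (4.46 ± 0.29, SD, n = 4) and 4.25, 4.66, 4.30 and 4.59 in RPMI_glcM/B27 (4.45 ± 0.21, SD, n = 4). In HPLM/B27 it was 3.36, 3.03, 3.49 and 3.01 (3.22 ± 0.24, SD, n = 4), below every library of both RPMI media and above Day 16. TBX5/TBX20 was 0.131 ± 0.01 at Day 16, and at Day 30 it was 0.126 ± 0.01 (RPMI/B27), 0.105 ± 0.01 (RPMI_glcM/B27) and 0.122 ± 0.01 (HPLM/B27), and the groups overlapped.

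In a two-sided exact permutation test of 4 libraries against 4, the smallest p possible is 0.029, and 12 of 24 ratio comparisons reached it. These were the 3 comparisons with Day 16 for GATA4/GATA6, HAND1/HAND2 and MEF2A/MEF2C, HPLM/B27 against RPMI_glcM/B27 for GATA4/GATA6, and HPLM/B27 against each RPMI medium for MEF2A/MEF2C. Adjusted over the 24 each had p = 0.057 by the exact permutation test, so none passed 0.05 after adjustment. With 12 of 24 at the smallest p, the adjusted value could be no lower, whatever the size of the differences. The log2 difference in MEF2A/MEF2C was −0.47 in HPLM/B27 against either RPMI medium, and −0.00 between RPMI_glcM/B27 and RPMI/B27.

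**Figure D4:**
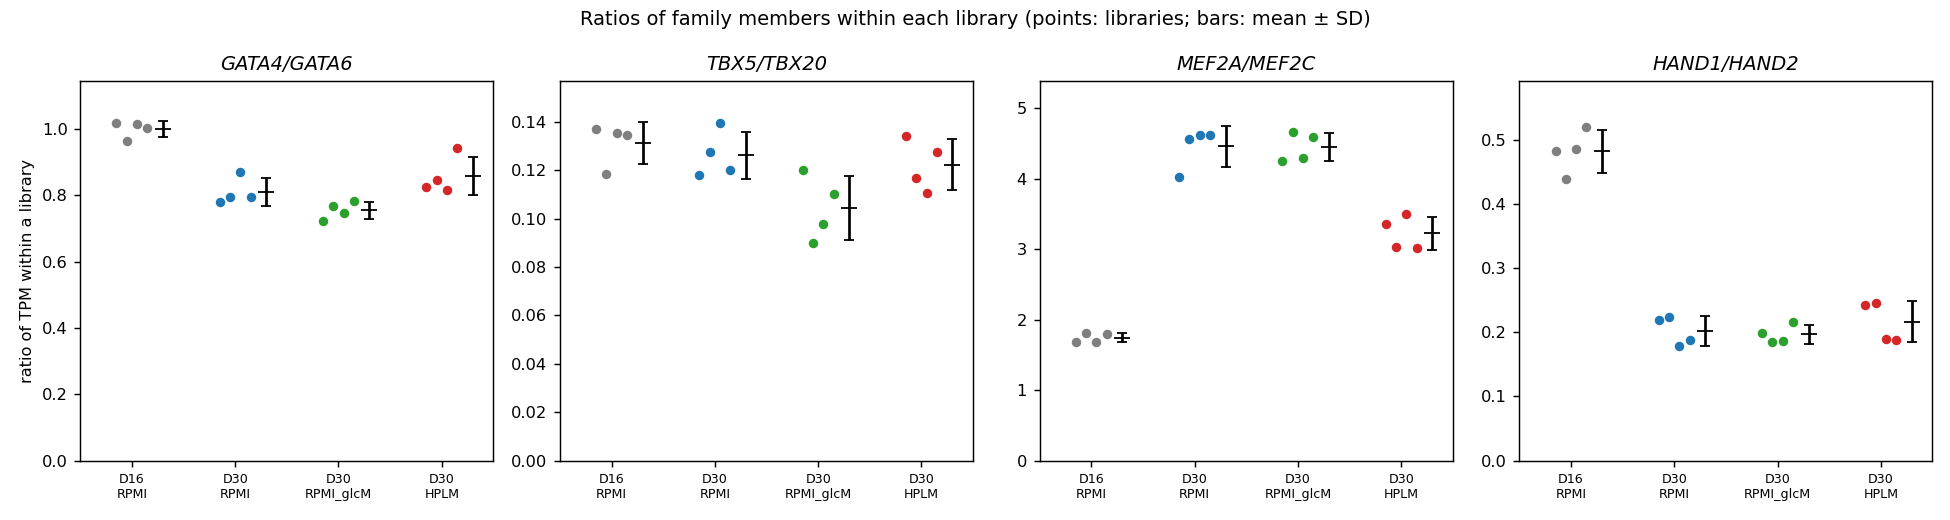
Ratio of TPM within each library (vertical axis, linear from 0, a separate scale in each panel) for GATA4/GATA6, TBX5/TBX20, MEF2A/MEF2C and HAND1/HAND2, by group. Points are libraries and the bar is the mean ± SD of 4. MEF2A/MEF2C sits at 1.69 to 1.81 at Day 16, at 3.01 to 3.49 in HPLM/B27 and at 4.03 to 4.66 in both RPMI media.

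The other genes of these families were followed from a list of 26, of which 9 passed the filter. Against Day 16, 1 rose and 5 fell in RPMI/B27, 1 rose and 4 fell in RPMI_glcM/B27, and 0 rose and 6 fell in HPLM/B27, with list medians of −0.54, −0.39 and −0.40 on the log2 scale beside 0.01 for all genes. Over all genes, 8.76%, 14.0% and 13.4% were called higher in these comparisons and 8.76%, 13.6% and 11.9% lower. The same shares apply to the lists and markers that follow. TBX2, a repressor of chamber genes in the outflow tract and atrioventricular canal, fell by 0.64 ± 0.09, 0.73 ± 0.09 and 0.75 ± 0.09 in the 3 media (adjusted p 0.00022, 3.8e-05 and 2.9e-05, limma), from 35.7 ± 1.73 TPM at Day 16 to 20.9 to 22.7 TPM on average. GATA5 fell by 0.47, 0.98 and 0.63, and NKX2-6 fell by 0.57, 0.33 and 0.35. TBX3, which marks the conduction system, fell by 0.73 in RPMI/B27 and 0.42 in RPMI_glcM/B27. IRX3, a conduction factor, fell by 0.67 in RPMI/B27 and 0.62 in HPLM/B27. IRX1 fell by 0.84 in HPLM/B27, from a mean of 1.60 to 0.454 TPM, near the filter of 1 TPM. TBX18, a factor of the sinus horns and epicardium, was the family gene that differed most between media: 9.34 ± 0.32 TPM at Day 16, 18.8 ± 3.66 TPM in RPMI/B27, 13.0 ± 1.05 TPM in RPMI_glcM/B27 and 6.97 ± 0.79 TPM in HPLM/B27. TBX18 rose by 0.92 and 0.44 in the RPMI media, fell by 0.38 in HPLM/B27, and was lower in HPLM/B27 than in RPMI_glcM/B27 (log2 fold change −0.82, adjusted p 0.0033, limma). On deposited TPM the counts were 1 higher and 6 lower, 0 and 4, and 0 and 7.

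Of 28 cofactors and partners of the 10 factors, 27 were tested. Against Day 16, 3 rose and 8 fell in RPMI/B27, 3 rose and 7 fell in RPMI_glcM/B27, and 2 rose and 11 fell in HPLM/B27 (list medians −0.10, −0.05 and −0.02 on the log2 scale, beside 0.01 for all genes). MYOCD (myocardin), a coactivator of SRF that also binds MEF2C, fell by 0.41, 0.59 and 0.64, from 126 ± 17.9 TPM to 94.4 ± 10.7, 82.8 ± 6.46 and 80.2 ± 3.17 TPM. MRTFB, its relative, fell by 0.36, 0.48 and 0.38. HDAC9, a deacetylase that represses MEF2 proteins, fell by 0.44 in RPMI_glcM/B27 and 0.33 in HPLM/B27. EP300, a histone acetyltransferase, fell by 0.29, 0.29 and 0.26. TCF3, an E-protein of the kind that pairs with HAND proteins, fell by 0.44 in RPMI/B27 and 0.29 in HPLM/B27, and the Notch-responsive repressor HEY1 fell by 0.63, 0.88 and 0.99. HOPX, a homeodomain-only protein of maturing heart muscle, rose by 2.14 ± 0.22, 1.27 ± 0.22 and 1.29 ± 0.22. It was 18.5 ± 6.11 TPM in RPMI/B27 and 9.21 ± 0.89 and 9.47 ± 1.78 TPM in the other two media. CITED2, a coactivator of GATA4 and NKX2-5 targets, rose by 0.29 in RPMI/B27 and 0.49 in RPMI_glcM/B27, and ISL1, an early progenitor factor, fell by 0.32 in RPMI_glcM/B27 and 0.50 in HPLM/B27. From deposited TPM the counts were 1 higher and 9 lower, 1 and 9, and 1 and 12.

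Between HPLM/B27 and RPMI_glcM/B27, 0 of the 27 rose and 2 fell, where 1.59% of all genes were called. HEY2, a repressor specific to compact ventricular muscle, averaged 49.3 ± 4.93 TPM at Day 16, 49.2 ± 5.82 TPM in RPMI/B27, 70.9 ± 9.40 TPM in RPMI_glcM/B27 and 38.4 ± 6.93 TPM in HPLM/B27. Like IRX4 it was highest in RPMI_glcM/B27, where every library exceeded those of the other groups, and its HPLM/B27 level was lower by a log2 fold change of −0.88 ± 0.13 (adjusted p 0.0033, limma). Against RPMI/B27, HEY2 was higher by 0.52 and KLF15, a repressor of hypertrophic genes, by 0.61 in RPMI_glcM/B27, where HOPX fell by 0.87 and HDAC9 fell by 0.25. In HPLM/B27 against RPMI/B27, KLF15 was higher by 0.59 and TEAD1, a Hippo pathway factor, by 0.32, while HOPX fell by 0.85 and ISL1 fell by 0.36. KLF15 lay near the filter of 1 TPM, with means of 0.875 TPM in RPMI/B27, 1.88 TPM in RPMI_glcM/B27 and 1.86 TPM in HPLM/B27. CITED2 was lower in HPLM/B27 than in RPMI_glcM/B27 by a log2 fold change of −0.40 ± 0.08 (adjusted p 0.026, limma).

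A list of 34 genes known as targets of these factors, most of them sarcomere, calcium handling or natriuretic peptide genes and several also on the cardiomyocyte marker list, had 33 tested. It was higher in 13 genes and lower in 2 in RPMI/B27 against Day 16, in 16 and 2 in RPMI_glcM/B27, and in 16 and 2 in HPLM/B27, with list medians of 0.25, 0.38 and 0.47 on the log2 scale beside 0.01 for all genes. With TPM as deposited the counts were 8 and 6, 10 and 5, and 12 and 6, and the medians −0.10, 0.11 and 0.12, so the sign of the first median depended on the scaling. MYL2, the ventricular myosin light chain, rose from 37.5 ± 6.32 TPM to 537 ± 64.5, 379.7 ± 23.8 and 687 ± 134 TPM. TNNI3, the adult cardiac troponin I, rose from 134 ± 13.6 TPM to 433 ± 39.1, 967 ± 110.0 and 1442 ± 77.2 TPM. In the same 3 media, in that order, TNNI1 (slow skeletal troponin I) rose by 0.70, 0.85 and 0.64, PLN (phospholamban) by 1.17, 1.44 and 1.71, and CSRP3 by 1.31, 1.24 and 2.00. MB (myoglobin) rose by 0.63, 1.03 and 1.31, and CKM (muscle creatine kinase) rose by 1.30 in RPMI_glcM/B27 and 1.53 in HPLM/B27. MYH6, the fast alpha myosin heavy chain, fell by 1.23, 0.87 and 1.37, and GJA5, an atrial and conduction connexin that TBX5 and NKX2-5 activate, fell by 1.25, 1.58 and 0.97.

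Among Day 30 media the target list had 6 higher and 3 lower in RPMI_glcM/B27 against RPMI/B27, 13 and 1 in HPLM/B27 against RPMI/B27, and 6 and 1 in HPLM/B27 against RPMI_glcM/B27 (list medians 0.12, 0.28 and 0.14). Over all genes, the medians were −0.00, −0.01 and 0.00 and the shares called 12.1%, 13.0% and 1.59% in these comparisons. In the last of these TNNI3 was higher by 0.58 ± 0.10, DES (desmin) by 1.11 ± 0.18, MYL2 by 0.84 ± 0.14, CASQ2 (cardiac calsequestrin) by 0.93 ± 0.19, CSRP3 (muscle LIM protein) by 0.76 ± 0.16 and NEBL (nebulette) by 0.36, all called by limma. RYR2, the calcium release channel, was the target that was lower, with a log2 fold change of −0.32 ± 0.05. With TPM as deposited 2 were higher and 0 lower.

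Of 15 early mesoderm and progenitor genes, 9 were tested, and ISL1, PDGFRA and KDR of these also stand on another list. Against Day 16, 1 rose and 2 fell in RPMI/B27, 0 rose and 4 fell in RPMI_glcM/B27, and 0 rose and 4 fell in HPLM/B27 (list medians −0.14, −0.25 and −0.44 on the log2 scale). FGF10, a ligand of second heart field progenitors, fell by 0.81, 0.62 and 0.81, from 91.4 ± 5.49 TPM to 51.8 ± 3.37, 59.2 ± 3.64 and 51.8 ± 4.50 TPM. KDR, a receptor of mesoderm and endothelium, fell by 0.97, 0.93 and 0.52, and PDGFRA, a receptor of progenitors and fibroblasts, fell by 1.07 in RPMI_glcM/B27 and 0.89 in HPLM/B27. EYA1 rose by 0.89 in RPMI/B27.

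All 10 cardiomyocyte markers had a mean above 1 TPM, and their summed level ranged from 11877 to 17545 TPM at Day 16, 12916 to 27676 TPM in RPMI/B27, 16377 to 19018 TPM in RPMI_glcM/B27 and 17783 to 22031 TPM in HPLM/B27. Markers of other cell types differed between the same groups, and GATA4, GATA6, HAND1, HAND2 and MEF2C are known to be expressed in some of those cells as well. Of 15 hepatic endoderm markers, 9 were tested, of which 1 rose and 5 fell in RPMI/B27, 1 rose and 8 fell in RPMI_glcM/B27 and 1 rose and 8 fell in HPLM/B27 against Day 16. The summed level of all 15 was 348 to 695 TPM at Day 16, 452 to 494 TPM in RPMI/B27, 96.8 to 242 TPM in RPMI_glcM/B27 and 80.9 to 211 TPM in HPLM/B27. Within the RPMI/B27 sum, AFP fell from a mean of 379 TPM at Day 16 to 145 TPM, while ALB rose from 18.2 to 248 TPM. Of 12 fibroblast markers, 7 were tested, of which 1 rose and 2 fell in RPMI/B27, 1 rose and 5 fell in RPMI_glcM/B27 and 0 rose and 4 fell in HPLM/B27 against Day 16. The sum of all 12 was 235 to 339.7 TPM at Day 16, 197 to 272 TPM in RPMI/B27, 142 to 162 TPM in RPMI_glcM/B27 and 144 to 202 TPM in HPLM/B27, with FAP at 0 in the Day 16, RPMI_glcM/B27 and HPLM/B27 libraries. The smooth muscle marker sum spanned 298 to 1234 TPM over all libraries with MYH11 at 0 throughout, the endothelial sum 18.8 to 46.8 TPM with 1 of 10 markers above the filter, the epicardial sum 93.9 to 147 TPM and the pluripotent sum 0.4 to 3.9 TPM. Between HPLM/B27 and RPMI_glcM/B27, where MEF2C and IRX4 were called, the median log2 fold change was −0.00 over the 9 hepatic endoderm markers and 0.19 over the 7 fibroblast markers. The fibroblast markers went in both directions, from −0.61 to 0.75, and 0 were called in either list. There 1 smooth muscle marker was higher and 1 epicardial marker (TBX18) was lower. In that comparison KDR, the 1 endothelial marker tested, was higher by 0.41 ± 0.15 with an adjusted p of 0.21 (limma). The endothelial sum averaged 41.5 TPM at Day 16, 23.0 TPM in RPMI/B27, 22.1 TPM in RPMI_glcM/B27 and 29.8 TPM in HPLM/B27. The part of these cells in the differences above was not tested.

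The genes closest in pattern to each factor were sought among 6833 genes of at least 10 TPM, as the smallest root mean square difference of centred log2 values over the 16 libraries. A factor that varied little had close neighbours that also varied little. The distance was 0.05 for GATA6 (RBCK1), 0.06 for TBX5 (BROX), 0.08 for TBX20 (ANKRD10) and 0.08 for MEF2A (KIF13A). It was 0.07 for GATA4 (UBE2R2), 0.09 for NKX2-5 (KHSRP) and 0.08 for HAND1 (OSBP). The genes nearest to HAND2 were ITSN2 and NFIB at 0.11 each. MEF2C had its nearest neighbours at 0.15, FADS2 and NAV2, and IRX4 at 0.16 and 0.20, EGFEM1P and PDGFD. This distance grows with how much a gene varies, so it does not compare how closely different factors were followed.

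Of 60 pairs of gene and comparison, 17 were called, and 1 of the 17, MEF2A in RPMI/B27 against Day 16, changed sign in an alternative. Of the 43 that were not called, 13 changed sign in at least 1 alternative fit of all libraries, 11 of them with TPM as deposited and the other 2 (TBX5 in RPMI/B27 and TBX20 in HPLM/B27, against Day 16) with RNR1 as a covariate. The falls of MEF2C and HAND1 and the rise of HAND2 kept their sign in all 3 comparisons with Day 16 under each scaling tried. GATA4, NKX2-5 and TBX5 also stayed below 0 in all 3 under each scaling, without being called in all 3 by the main fit.

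**Figure D5:**
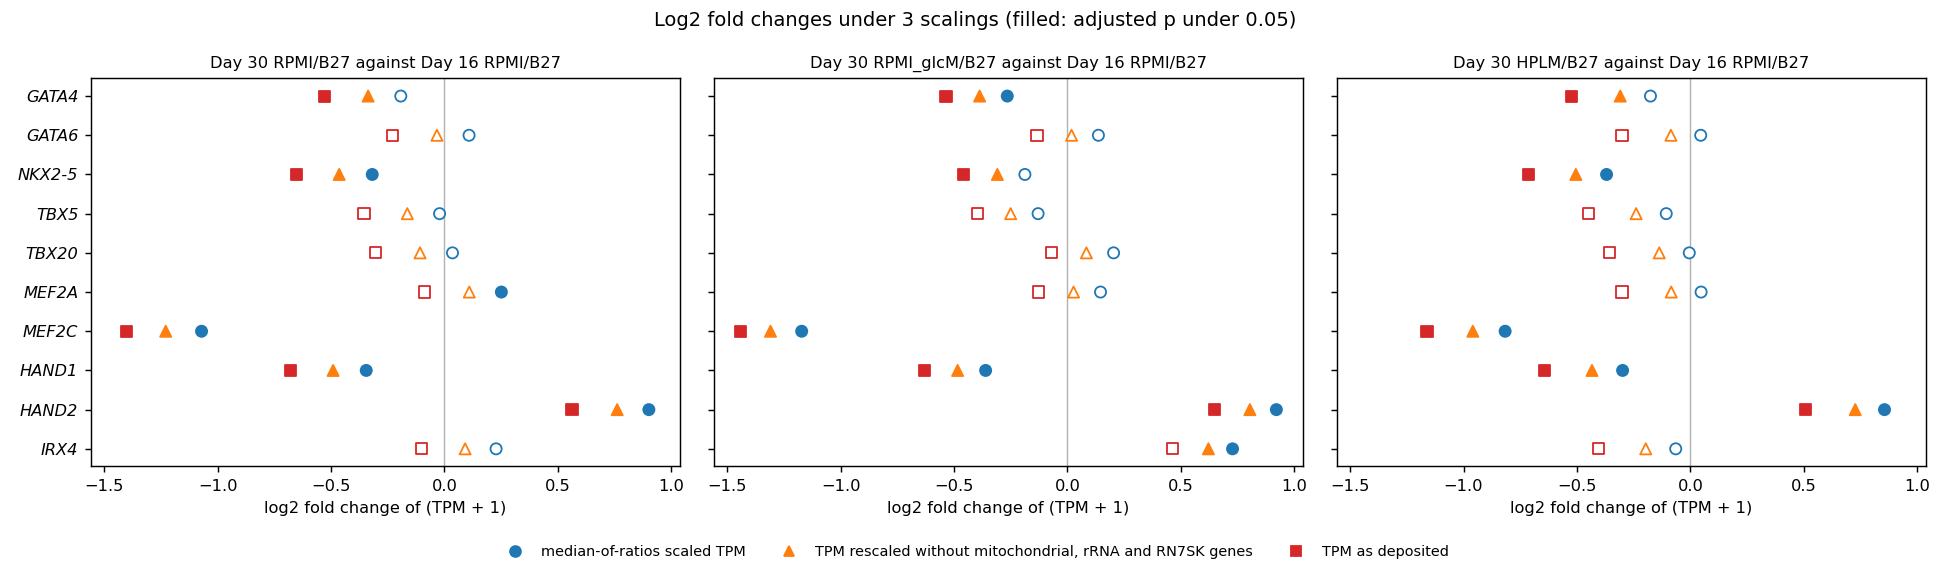
Log2 fold change of (TPM + 1) of the 10 genes against Day 16 in the 3 Day 30 media under 3 scalings: median-of-ratios scaled TPM, TPM rescaled without mitochondrially encoded, ribosomal RNA and RN7SK genes, and TPM as deposited. Filled points passed an adjusted p of 0.05. Deposited TPM shifts every gene to the left, and MEF2C, HAND1 and HAND2 stay on their side of 0 in each panel.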

How the data were processed

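RNA was measured in 16 libraries, 4 wells in each of 4 groups, grouped by their labels. The authors aligned reads with STAR 2.5.3a to hg38, counted them with featureCounts 2.0.3 and deposited TPM (transcripts per 1000000) for 43388 genes. The gene annotation, gene lengths and strand setting are not given in the sources used here. Whole reads were recovered from TPM ratios for all 31047 genes above 0 (tolerance 0.02 read), 7744768 to 16183655 per library. The smallest whole numbers that fit were taken, so counts that share a divisor come out too low. On simulated counts 2306 of 2404 genes were recovered exactly.

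TPM was divided by a median-of-ratios factor from the 17539 genes above 0 in every library. Genes with a mean of at least 1 deposited TPM (16122) were fitted on log2(scaled TPM + 1) with limma 3.58.1 (R 4.3.3, eBayes with trend) over all libraries, with Benjamini-Hochberg adjustment at 0.05. Fold changes on this scale understate those of low genes. The study's own test, on counts, was not applied to TPM. Ratios within a library were tested with the two-sided exact permutation test. The fit was tested on simulated data. Alternatives were the scaling, pseudocount (0.1), filter, groups fitted, replicate block, a covariate for RNR1 (mitochondrial small ribosomal RNA), limma-voom on recovered reads and each library left out.

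The 10 members and all gene lists were chosen with earlier results of these data known. Named beside the 10 members were their antisense neighbours, list genes past the threshold in the comparisons described (up to 6 per list by adjusted p, and those called in HPLM/B27 against RPMI_glcM/B27), plus the nearest genes in pattern. A gene that this rule names is not reported here. MYH6 and GJA5 lie outside that limit and were chosen after their values were seen. Positions and promoters are from RefSeq (GRCh38.p14), by symbol.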

Additional observations from a re-analysis of the deposited data

Results flagged for a closer look

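Of 75 groups of 4 libraries examined for the 10 genes, their antisense neighbours and the family ratios, 8 held 1 library far from the other 3, with a gap to its nearest library, as a share of the range, above the 95% critical value of Dixon's test. Chance gives about 1 in 20 such groups. GATA6 was 80.4 TPM in Day 30 RPMI/B27 replicate 1, against 71.6 to 73.1 TPM in the others. MEF2A was 97.6 TPM in Day 16 replicate 2, against 100.4 to 101 TPM. IRX4 was 18.3 TPM in HPLM/B27 replicate 4, against 28.2 to 29.8 TPM, and its call between HPLM/B27 and RPMI_glcM/B27 held without that library. MEF2C-AS2 was 0.512 TPM in RPMI/B27 replicate 1 and 1.20 TPM in RPMI_glcM/B27 replicate 2, from 1 and 2 reads, against 0 in the other libraries of each group. The log2 ratio of GATA4 to GATA6 was −0.197 in RPMI/B27 replicate 3, against −0.356 to −0.330. The log2 ratio of MEF2A to MEF2C was 2.01 in RPMI/B27 replicate 1, against 2.19 to 2.21. The log2 ratio of TBX5 to TBX20 was −3.08 in Day 16 replicate 2, against −2.89 to −2.87. No cause was tested.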

How the results depend on the processing

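The count of members called moved by over 1.5 times in these fits. In RPMI/B27 against Day 16 it went from 5 to 3 with the RNR1 covariate and with only the 2 groups fitted, and was 3 to 4 with 1 library left out. In RPMI_glcM/B27 against RPMI/B27 it went from 1 to 0 with TPM as deposited, and was 0 to 1 with 1 library left out. In HPLM/B27 against RPMI/B27 it went from 0 to 1 with genes of at least 5 TPM, and to 2 with limma-voom on recovered reads, and was 0 to 1 with 1 library left out. In HPLM/B27 against RPMI_glcM/B27 it went from 2 to 0 with TPM as deposited, and to 1 with the rescaled TPM, with all genes above 0 and with only the 2 groups fitted, and was 1 with each library left out. The log2 fold change of MEF2A turned from 0.25 to −0.087 in RPMI/B27 against Day 16 with TPM as deposited, from 0.15 to −0.13 in RPMI_glcM/B27 against Day 16, and that of TBX20 from 0.20 to −0.070 in the latter. The cause was not tested.

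With the replicate block, the count in HPLM/B27 against RPMI/B27 went from 0 to 1 (MEF2C, adjusted p 0.033, limma), and no other call of a member in a pairwise comparison changed. Equal numbers are not stated to mark a shared batch: deviations of the 24 pairs of equal-numbered libraries correlated at −0.24 to 0.45 (median 0.13, 14 over 0.1), and 8 of 16 libraries correlated best with their own number. The family ratios under the same block could not pass, with a smallest exact sign-flip p of 0.125.

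Over all genes, the calls in RPMI_glcM/B27 against RPMI/B27 went from 1952 to 354 with TPM as deposited, 1201 with the rescaled TPM and 1134 with 2 groups, those in HPLM/B27 against RPMI/B27 from 2091 to 388, 1326 and 1174, and those in HPLM/B27 against RPMI_glcM/B27 from 257 to 11 and 102 under the first 2 of these. RPMI/B27 against Day 16 went from 2825 to 1878 with 2 groups. The reads behind IRX4 (181 to 570) and HAND1 (229 to 548) were the fewest of the 10.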
